A study of Homo sapiens with 12 samples.

Results

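The 10 genes described here encode subunits of SWI/SNF complexes, the nucleosome remodelers also called BAF complexes, and were taken by symbol: the ATPases SMARCA2 and SMARCA4, the core scaffold subunits SMARCC1, SMARCC2, SMARCD1 and SMARCD3, the DNA-binding subunits ARID1A and ARID1B, the actin-related subunit ACTL6A and the PHD finger subunit PHF10. All 10 were found among the 59050 gene symbols counted. The groups were neural progenitor cells (NPC), made from the human embryonic stem cell line HUES8 by 7 days of neural induction with SB431542 (2.5 uM, which blocks Nodal and activin receptors, withdrawn for the last 2 days) and LDN193189 (0.05 uM, which blocks BMP receptors), and undifferentiated HUES8 cells (ESC) grown in mTeSR1 medium. Both states carry the WT genotype and come from this line alone. Each state was measured in 3 libraries of total RNA depleted of rRNA and 3 libraries of ribosome-bound RNA, 12 in all.

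SWI/SNF complexes use the energy of ATP to slide or evict nucleosomes and so open enhancers and promoters to transcription factors. Several positions of the complex can be filled by alternative, related proteins, and the choice changes with cell type. In mouse, embryonic stem cells are known for a form built on SMARCA4, SMARCC1, SMARCD1 and ARID1A. Mouse neural progenitors take up SMARCC2 and SMARCA2 and carry ACTL6A and PHF10, which are exchanged for ACTL6B and for DPF1 or DPF3 when the cells leave the cell cycle and become neurons.

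The ATPase genes differed most clearly in how they moved, so the DNA around their outermost RefSeq start sites is shown, with that of SMARCD3, whose RNA rose. Each window holds 250 bases before and 50 after the start in the GRCh38.p14 build, 5′ to 3′ on the strand of the gene, with each CG dinucleotide in capitals. The windows are chr9:2015097-2015396 on the plus strand for SMARCA2, chr19:10960780-10961079 on the plus strand for SMARCA4, and chr7:151277100-151277399 on the minus strand for SMARCD3.
SMARCA2: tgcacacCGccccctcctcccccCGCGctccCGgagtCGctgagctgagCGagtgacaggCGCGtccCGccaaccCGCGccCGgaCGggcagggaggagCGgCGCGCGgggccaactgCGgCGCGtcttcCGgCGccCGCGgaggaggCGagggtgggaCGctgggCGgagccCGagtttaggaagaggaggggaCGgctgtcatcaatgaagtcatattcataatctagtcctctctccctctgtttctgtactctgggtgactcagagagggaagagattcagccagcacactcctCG
SMARCA4: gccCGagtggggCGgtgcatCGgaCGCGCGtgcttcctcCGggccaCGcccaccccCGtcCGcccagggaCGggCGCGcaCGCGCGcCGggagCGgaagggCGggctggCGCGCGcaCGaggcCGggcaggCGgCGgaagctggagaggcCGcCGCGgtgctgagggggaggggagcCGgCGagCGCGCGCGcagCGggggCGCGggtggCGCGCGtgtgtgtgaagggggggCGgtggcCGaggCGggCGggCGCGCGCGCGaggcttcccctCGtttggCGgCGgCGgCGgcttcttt
SMARCD3: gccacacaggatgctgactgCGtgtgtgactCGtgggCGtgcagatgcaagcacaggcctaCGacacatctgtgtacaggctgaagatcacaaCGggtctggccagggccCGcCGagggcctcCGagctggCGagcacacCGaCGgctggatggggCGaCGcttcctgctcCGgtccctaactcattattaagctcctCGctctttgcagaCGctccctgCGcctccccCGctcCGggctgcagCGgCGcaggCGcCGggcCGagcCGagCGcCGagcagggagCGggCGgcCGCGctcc
The SMARCA2 window held 30 CG dinucleotides, that of SMARCA4 55 and that of SMARCD3 31, against a median of 14 over 35116 promoter windows. The motif GGGCGG, read on both strands, was present 2 times in the SMARCA2 window, 5 times in that of SMARCA4 and 1 time in that of SMARCD3, and in 45.0% of all windows. CCAAT, also read on both strands, was found in none of the 3, and in 34.6% of all windows. These 3 outermost windows were thus richer in CG than the median window. The outermost windows of SMARCD1, ARID1A and PHF10 held 35, 33 and 47 CG, but that of ARID1B held 5, below the median. Windows at the other start sites held 3, 4 and 9 CG for SMARCA2, 5 for SMARCA4, and 1 and 36 for SMARCD3. RefSeq lists 4 start sites for SMARCA2, 2 for SMARCA4 and 3 for SMARCD3, and the counts per gene do not separate them. Promoter windows were matched for 7 of the 10 genes.

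RNA libraries held 19529738 to 35117370 counts each, ribosome-bound ones 2422756 to 4451196. All 5 stem cell markers examined fell in NPC RNA and all 5 neural progenitor markers rose, in total and in ribosome-bound RNA. Levels are given in CPM, counts scaled to a library total of 1000000, which are not corrected for gene length and are compared between states only. Neural progenitor markers summed to 185 to 194 CPM in NPC RNA and 11.5 to 13.5 CPM in ESC RNA. On ribosomes they summed to 127 to 158 CPM in NPC and 49.1 to 60.0 CPM in ESC. Summed over 5 neural crest markers, levels were 181 to 182 CPM in NPC RNA and 8.45 to 17.2 CPM in ESC RNA. On ribosomes the neural crest sums were 222 to 274 CPM in NPC and 27.2 to 38.0 CPM in ESC. Of these 5 neural crest markers, 4 rose and 1 fell in each assay. Neuron markers summed to 9.82 to 11.7 CPM in NPC RNA and 19.4 to 21.4 CPM in ESC RNA, and to 29.6 to 34.7 CPM in NPC and 84.6 to 152 CPM in ESC ribosome-bound RNA. Trophoblast and amnion markers summed to 77.2 to 78.5 CPM in NPC RNA and 65.8 to 71.0 CPM in ESC RNA, and mesoderm and endoderm markers to 0.285 to 0.383 CPM in NPC RNA and 10.5 to 11.0 CPM in ESC RNA. On ribosomes, trophoblast and amnion markers summed to 80.6 to 99.97 CPM in NPC and 45.4 to 98.7 CPM in ESC, and mesoderm and endoderm markers to 1.42 to 3.67 CPM in NPC and 250.1 to 269 CPM in ESC. Of these markers, VTCN1 alone had 0 counts in all libraries of a group, the ribosome-bound ESC libraries. Of 5 neuron markers 1 rose and 3 fell in RNA, and on ribosomes 2 of 3 tested fell. Of 4 trophoblast and amnion markers tested in RNA, 2 rose and 1 fell, and of 2 tested on ribosomes 1 rose and 1 fell. All mesoderm and endoderm markers tested fell in both assays. The part of these other cell types in the results was not tested. ESC replicate 3 in RNA and ESC replicate 2 in ribosome-bound RNA stood apart from their groups, with correlations of 0.976 to 0.980 and 0.927 to 0.940 with the other replicates across genes, against 0.996 and 0.976 between those others. There the 10 subunits lay at -0.69 to 0.66 (median 0.001) and at -1.18 to 0.60 (median -0.47) on the log2 scale from the mean of the other libraries. Most subunits were thus lower in ribosome-bound ESC replicate 2 than in the other ribosome-bound ESC libraries.

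The first question was which subunit genes changed in abundance during neural induction. In total RNA SMARCA2 fell 26.5-fold, SMARCD3, SMARCC2 and ARID1A rose, and ACTL6A and PHF10 fell. Of the 10 subunits 3 were higher and 3 lower in NPC at an adjusted p below 0.05 (edgeR's quasi-likelihood test, p-values adjusted by Benjamini and Hochberg's method over 18631 genes). Across all genes tested, 52.6% were called, 26.4% higher and 26.2% lower, so the share of subunits called was close to the background. The median log2 fold change was -0.08 over the 10 subunits and 0.03 over all genes.

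**Figure D1:**
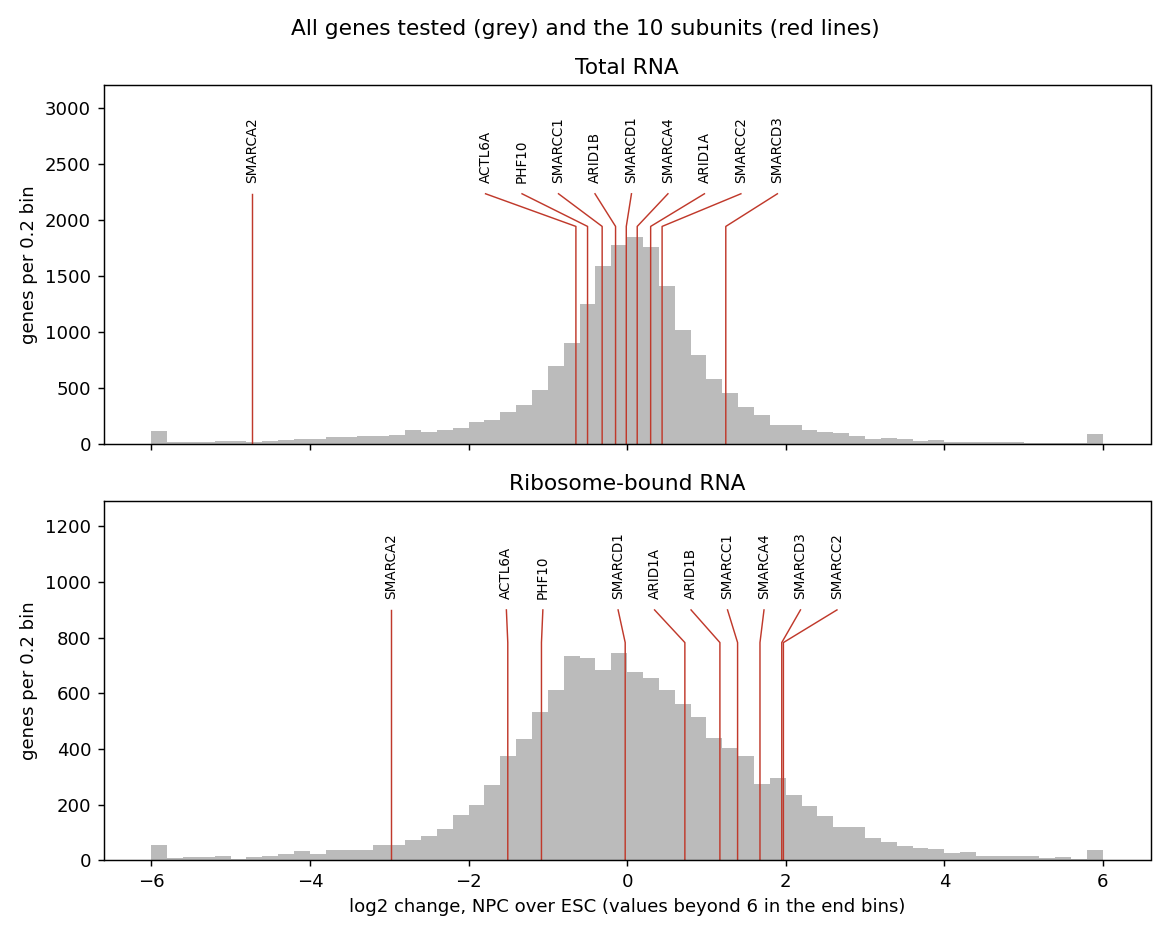
Histograms of the log2 fold change of NPC over ESC for all genes tested (grey), with the 10 subunits as red lines, for total RNA (18631 genes) and ribosome-bound RNA (12250 genes). In total RNA 9 subunits lie between -0.65 and 1.24 and SMARCA2 at -4.73, while in ribosome-bound RNA 6 subunits lie at 0.73 or above.

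The ATPases drive the remodeling reaction, and a complex holds SMARCA2 or SMARCA4. SMARCA2 RNA stood at 0.690, 0.313 and 0.367 CPM in NPC replicates 1, 2 and 3, against 11.1, 10.03 and 12.9 CPM in the ESC replicates. Every NPC library lay below every ESC library, by a wide margin. SMARCA2 fell 26.5-fold (log2 fold change -4.73 ± 0.27 (SE), adjusted p = 5.13e-06), and 1.28% of all genes tested had a lower value. The NPC libraries together still held 41 SMARCA2 counts, against 738 in ESC, a ratio of 25.6 with an exact 95% counting interval of 18.7 to 36.0. In these human cells SMARCA2 RNA was thus lower in the neural progenitors. The uptake known from mouse concerns protein in the complex, which was not measured here, so the 2 cannot be compared directly. Bulk libraries cannot tell fewer cells with SMARCA2 RNA from less of it per cell.

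SMARCA4 RNA was at 556, 531 and 510.0 CPM in NPC and at 499, 531 and 359.7 CPM in ESC. The groups overlapped, and the change of 0.13 ± 0.16 did not pass the test (adjusted p = 0.522). It was -0.040 without ESC replicate 3, the lowest library.

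On ribosomes SMARCA2 fell as well, and SMARCA4 rose. Ribosome-bound SMARCA2 was at 2.14, 0.854 and 1.57 CPM in NPC, from 7, 3 and 7 counts, against 9.12, 9.91 and 18.0 CPM in ESC. All NPC values lay below all ESC values. SMARCA2 fell 7.86-fold (-2.97 ± 0.45, adjusted p = 1.40e-04), and the ratio of ESC to NPC counts was 8.50 with an interval of 5.09 to 15.1.

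Ribosome-bound SMARCA4 was at 2168, 2192 and 2446 CPM in NPC, against 982, 411 and 813 CPM in ESC. The NPC libraries lay above the ESC libraries without overlap. SMARCA4 rose 3.19-fold (1.68 ± 0.30, adjusted p = 4.54e-04), and by 1.40 without ESC replicate 2, its lowest library.

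Ribosome-bound RNA as a whole gave more calls among the subunits. SMARCA4, both SMARCC genes, SMARCD3 and both ARID1 genes rose there, and SMARCA2, ACTL6A and PHF10 fell. This made 6 of 10 higher and 3 of 10 lower in NPC, where 61.8% of 12250 genes were called, 31.6% higher and 30.3% lower. The median log2 fold change was 0.95 over the 10 subunits and -0.01 over all genes. The values of NPC and ESC libraries did not overlap for 9 of the 10 subunits, against 67.0% of all genes, and for 7 of the 10 in total RNA, against 63.2% of all genes.

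**Figure D2:**
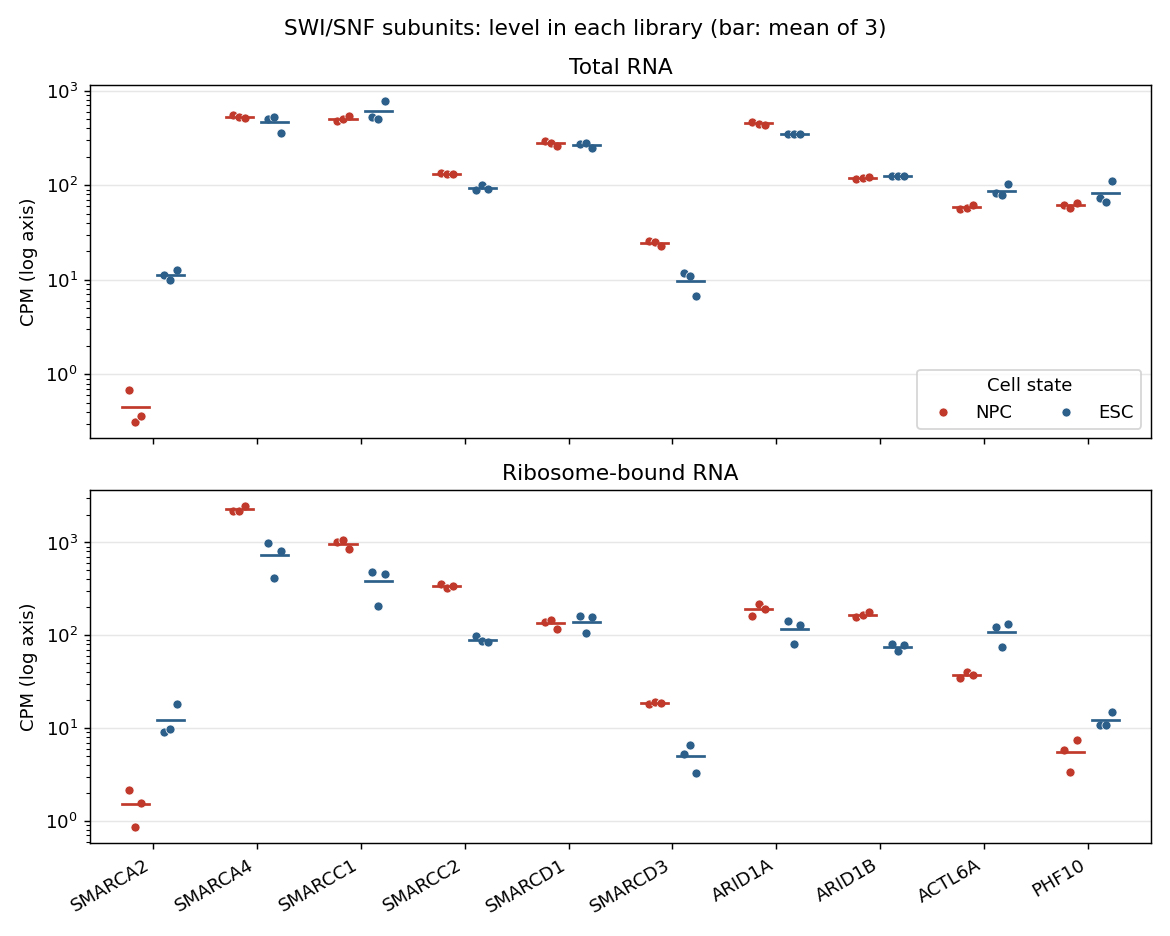
Level of each subunit in CPM (log axis) in every library, with NPC in red left of ESC in blue and a bar at the mean of 3 libraries, for total RNA above and ribosome-bound RNA below. SMARCA2 is at 0.313 to 0.690 CPM in NPC RNA and at 10.03 to 12.9 CPM in ESC RNA, and SMARCA4 separates by state on ribosomes but not in RNA.

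SMARCC1 and SMARCC2 form the dimer at the base of the complex. SMARCC1 RNA was at 483, 503 and 538 CPM in NPC, against 530.5, 504 and 779 CPM in ESC, and its change of -0.31 ± 0.15 did not pass the test (adjusted p = 0.118). SMARCC2 RNA was at 135, 131 and 133 CPM in NPC, against 88.6, 99.5 and 92.0 CPM in ESC. SMARCC2 thus separated the states and rose 1.36-fold (0.44 ± 0.09, adjusted p = 0.00506), whereas the SMARCC1 ranges overlapped. The SMARCC1 change in RNA was -0.11 without ESC replicate 3, its highest library, and -0.46 without ESC replicate 2, and passed in neither case.

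On ribosomes SMARCC1 stood at 1012, 1057 and 853 CPM in NPC, against 485, 208 and 458 CPM in ESC, a rise of 1.39 ± 0.29 (adjusted p = 0.00133). SMARCC2 stood at 357, 327 and 344 CPM in NPC, against 98.7, 85.9 and 84.3 CPM in ESC. Both genes separated the states on ribosomes. The 3.92-fold rise of SMARCC2 (1.97 ± 0.19, adjusted p = 6.63e-06) was the largest among the 10 subunits there, followed by SMARCD3 and SMARCA4, whose values lay within the standard errors of it.

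SMARCD1 and SMARCD3 link the core to transcription factors. SMARCD1 RNA was at 293, 278 and 263 CPM in NPC and at 275, 277 and 249 CPM in ESC (-0.01 ± 0.10, adjusted p = 0.938). Ribosome-bound SMARCD1 was at 138, 148 and 118 CPM in NPC and at 159.7, 106 and 157 CPM in ESC (-0.02 ± 0.20, adjusted p = 0.926). It is the one subunit whose states overlapped in both assays and passed neither test.

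SMARCD3 RNA was at 25.9, 25.2 and 22.5 CPM in NPC, against 11.8, 10.9 and 6.81 CPM in ESC. Ribosome-bound SMARCD3 was at 18.0, 19.4 and 18.6 CPM in NPC, against 5.21, 6.60 and 3.33 CPM in ESC. In both assays each NPC library was above every ESC library. SMARCD3 rose 2.37-fold in RNA (1.24 ± 0.22, adjusted p = 0.00192), or by 1.03 without ESC replicate 3, and 3.86-fold on ribosomes (1.95 ± 0.30, adjusted p = 1.72e-04). Its annotated span overlaps that of CHPF2 by 43 bases. CHPF2 was at 0.43 ± 0.15 in RNA (edgeR, adjusted p = 0.0436) and at -0.36 ± 0.21 on ribosomes (adjusted p = 0.156). Its part in the SMARCD3 counts was not tested.

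ARID1A and ARID1B are mutually exclusive subunits that bind DNA and define the canonical BAF form. ARID1A RNA was at 468, 449 and 434 CPM in NPC, against 351, 348 and 350.3 CPM in ESC, and ARID1B RNA at 117, 118 and 121 CPM in NPC, against 126, 124 and 125 CPM in ESC. The states did not overlap for either gene, yet the differences were small. ARID1A rose 1.23-fold (0.30 ± 0.08, adjusted p = 0.0161). That call ended without ESC replicate 1 (adjusted p = 0.0747) or NPC replicate 1 or 2 (0.0828 and 0.0688), and with no filter on low counts (0.0515). ARID1B, at -0.15 ± 0.09, did not pass (adjusted p = 0.189), and passed at -0.16 without ESC replicate 3 (adjusted p = 0.0211).

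On ribosomes ARID1A was at 163, 220.1 and 190.3 CPM in NPC, against 144, 81.3 and 130.3 CPM in ESC. ARID1B was at 157, 164 and 177 CPM in NPC, against 81.5, 67.3 and 77.9 CPM in ESC. Both were higher in every NPC library. ARID1A rose 1.66-fold (0.73 ± 0.22, adjusted p = 0.0130), a call lost without NPC replicate 2 (adjusted p = 0.0603). ARID1B rose 2.25-fold (1.17 ± 0.18, adjusted p = 1.65e-04).

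ACTL6A, an actin-related subunit that pairs with the ATPase, and PHF10, a PHD finger subunit of the polybromo-containing form, were lower in NPC in both assays. ACTL6A RNA was at 56.2, 57.6 and 62.4 CPM in NPC, against 82.0, 78.0 and 103 CPM in ESC. Ribosome-bound ACTL6A was at 34.8, 40.1 and 37.7 CPM in NPC, against 123, 74.3 and 131 CPM in ESC. It fell 1.56-fold in RNA (-0.65 ± 0.12, adjusted p = 0.00270) and 2.84-fold on ribosomes (-1.50 ± 0.22, adjusted p = 1.16e-04), with no overlap between states in either assay. MRPL47, a mitochondrial ribosomal protein gene whose span overlaps ACTL6A by 123 bases, fell as well (-0.77 ± 0.11 in RNA and -1.88 ± 0.20 on ribosomes). Its part in the ACTL6A counts was not tested.

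PHF10 RNA was at 61.4, 57.8 and 64.9 CPM in NPC, against 73.3, 65.7 and 110.1 CPM in ESC. Ribosome-bound PHF10 was at 5.80, 3.42 and 7.41 CPM in NPC, against 10.8, 10.7 and 15.0 CPM in ESC. All NPC values were below all ESC values, though the gap in RNA was narrow. PHF10 fell 1.41-fold in RNA (-0.50 ± 0.18, adjusted p = 0.0450) and 2.11-fold on ribosomes (-1.08 ± 0.34, adjusted p = 0.0155). In RNA the fall was -0.27 without ESC replicate 3 (adjusted p = 9.32e-04), and the call ended without ESC replicate 1 or NPC replicate 1, 2 or 3 (adjusted p = 0.0552, 0.117, 0.145 and 0.0954) and with a filter of 1 CPM in 3 libraries (0.0559). On ribosomes it ended without ESC replicate 3 or NPC replicate 2 (adjusted p = 0.0697 and 0.0721). C6orf120, which overlaps PHF10 over 2459 bases, was at -0.40 ± 0.14 in RNA (adjusted p = 0.0408) and -0.34 ± 0.35 on ribosomes (adjusted p = 0.423), and its part was not tested.

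Next, the change on ribosomes was set against the change in RNA for each subunit. Translational efficiency here is ribosome-bound relative to total RNA. Its change is the NPC over ESC difference on ribosomes minus that in RNA, tested as an interaction over all 12 libraries. That fit has its own filter and scaling, so its values differ slightly from the difference of the separately tested changes. Efficiency rose for SMARCA2, SMARCA4, SMARCC1, SMARCC2 and ARID1B and fell for ACTL6A, which made 5 of 10 higher and 1 lower. Of 11866 genes tested, 41.9% were called, 22.9% higher and 19.0% lower. The median change was 0.96 on the log2 scale over the subunits and -0.05 over all genes.

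SMARCC1 had the largest value, 1.67 ± 0.35 (adjusted p = 0.00153), close to SMARCA2 at 1.66 ± 0.60 (adjusted p = 0.0344). SMARCA4 was at 1.49 ± 0.33 (adjusted p = 0.00234), SMARCC2 at 1.48 ± 0.20 (adjusted p = 4.93e-05) and ARID1B at 1.27 ± 0.19 (adjusted p = 1.20e-04). These 5 values lay within their errors of each other. SMARCA2, with the fewest counts, was the least stable: its call ended without RNA ESC replicate 3 (adjusted p = 0.0562), RNA NPC replicates 2 or 3 (0.0797 and 0.0712), ribosome-bound ESC replicates 1 or 2 (0.0577 and 0.0506) or ribosome-bound NPC replicates 1 or 3 (0.138 and 0.0922). For SMARCA2 a positive value means that the RNA fell more than its ribosome-bound part, since both fell.

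ACTL6A was the only subunit called lower in efficiency (-0.90 ± 0.26, adjusted p = 0.0118). PHF10 at -0.62 ± 0.38, SMARCD3 at 0.66 ± 0.37, ARID1A at 0.38 ± 0.25 and SMARCD1 at -0.07 ± 0.23 did not pass (adjusted p = 0.198, 0.163, 0.226 and 0.836). Without RNA ESC replicate 3, PHF10 passed at -0.89 (adjusted p = 0.0263) and SMARCD3 at 0.87 (adjusted p = 0.0198). With other libraries left out the values were also smaller, down to -0.38 for PHF10 without ribosome-bound NPC replicate 2, 0.38 for SMARCD3 without ribosome-bound ESC replicate 3, and 0.21 for ARID1A without ribosome-bound ESC replicate 2. Expressed as the log2 ratio of mean ribosome-bound to mean RNA CPM, SMARCA4 was at 2.09 in NPC and 0.67 in ESC, SMARCC1 at 0.94 in NPC and -0.66 in ESC, and ACTL6A at -0.64 in NPC and 0.32 in ESC. SMARCA2 was at 1.08 in NPC and 0.12 in ESC, a difference of 0.96, which is smaller than its fitted change of 1.66. These levels have 0.5 added to each CPM, which is more than the SMARCA2 level of 0.457 CPM in NPC RNA. PHF10 was at -3.36 in NPC and -2.72 in ESC. The median gene was at -0.29 in NPC and -0.33 in ESC.

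**Figure D3:**
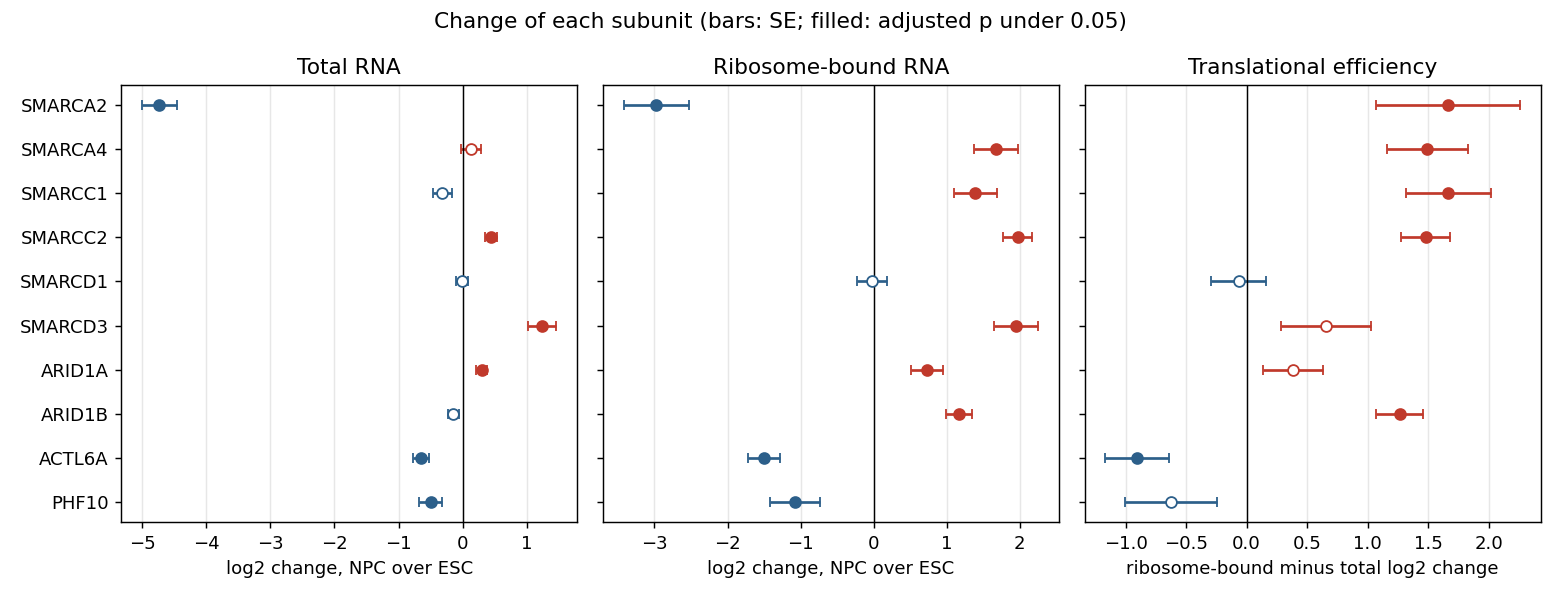
Log2 change of each subunit with its standard error, in total RNA, in ribosome-bound RNA and in translational efficiency, with filled points for an adjusted p below 0.05 and open points otherwise. SMARCC1 and ARID1B lie left of 0 in RNA without a call and right of 0 on ribosomes, at 1.39 and 1.17.

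The ratio of related subunits within a library was followed next. The ratio does not depend on library size, and gene length cancels in the difference between states, so only that difference is read. In RNA the log2 ratio of SMARCA2 to SMARCA4 was -9.61, -10.66 and -10.38 in NPC and -5.49, -5.72 and -4.80 in ESC, a difference of -4.88. On ribosomes the difference was -4.65. The ratio was lower in every NPC library than in any ESC library in both assays.

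The ratio of SMARCD3 to SMARCD1 was higher in NPC by 1.30 in RNA and 1.95 on ribosomes, again without overlap. The ratio of SMARCC2 to SMARCC1 was higher by 0.74 in RNA without overlap, while on ribosomes the difference of 0.50 came with overlapping values, and was 0.28 without ESC replicate 3 and 0.87 without ESC replicate 2. PHF10 to DPF2, which takes the same position in another form of the complex, differed by -0.80 in RNA and -1.51 on ribosomes without overlap. The RNA difference was -0.49 without ESC replicate 3, whose log2 ratio was 0.06, against -0.70 and -0.99 in the other ESC replicates. ARID1B to ARID1A differed by -0.44 in RNA and by 0.42 with overlap on ribosomes. For the neuronal ACTL6B against ACTL6A the differences were 0.06 in RNA and 1.19 on ribosomes, with overlap in both, and the difference on ribosomes was 0.70 without NPC replicate 2.

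Each of the 12 ratios (6 pairs in 2 assays) was tested with a two-sided exact permutation test over libraries, which with 3 against 3 cannot go below p = 0.10. The 8 ratios without overlap reached that smallest value (0.15 after Benjamini-Hochberg adjustment), so none could pass 0.05. The other 4 had exact p = 1 for ACTL6B to ACTL6A in RNA, and 0.40, 0.20 and 0.20 for SMARCC2 to SMARCC1, ARID1B to ARID1A and ACTL6B to ACTL6A on ribosomes.

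**Figure D4:**
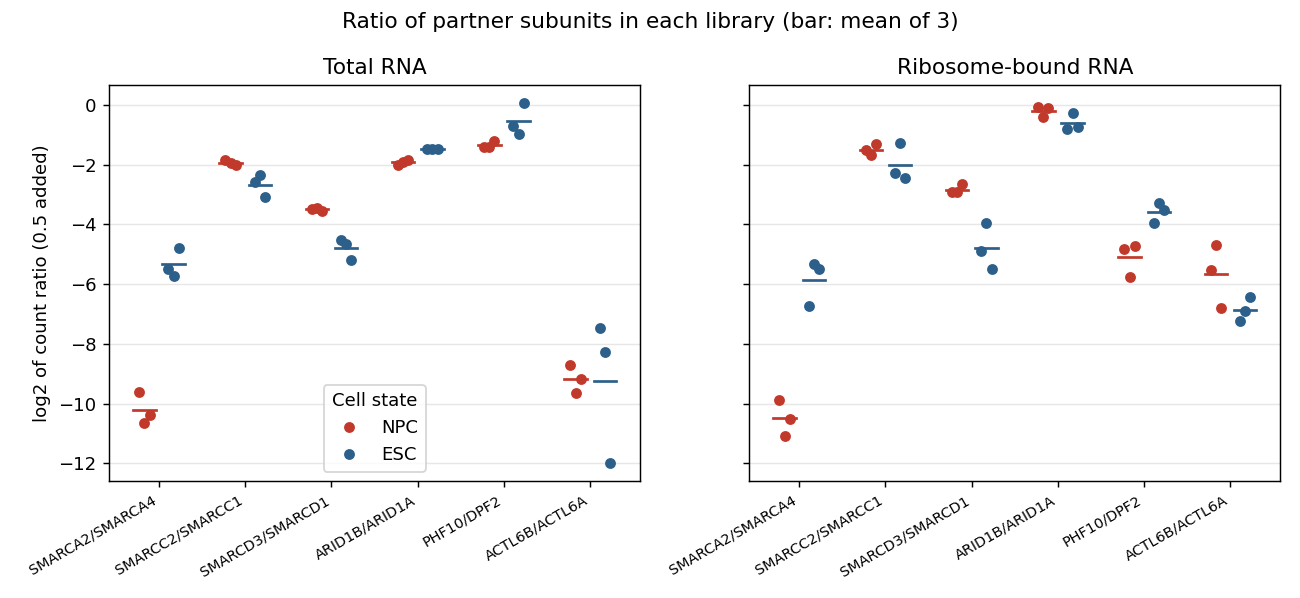
Log2 ratio of the counts of partner subunits (0.5 added to each) in every library, with NPC in red left of ESC in blue and a bar at the mean of 3 libraries, for total RNA and ribosome-bound RNA. The SMARCA2 to SMARCA4 ratio has NPC means of -10.22 in RNA and -10.50 on ribosomes, against ESC means of -5.34 and -5.85.

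The other SWI/SNF subunits were then counted. SS18 was not analysed here, and 20 of the 21 listed were in the table. In RNA 6 of 18 rose and 4 fell at the same threshold, where 26.4% of all genes were called higher and 26.2% lower. On ribosomes 7 of 17 rose and 2 fell, where 31.6% of all genes were called higher and 30.3% lower. Their median log2 fold change was 0.09 in RNA and 0.38 on ribosomes. In efficiency 7 of 17 were higher and 0 lower, with 1 lower without RNA ESC replicate 3, where 22.9% of all genes were called higher and 19.0% lower.

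The lower group was led by BCL11A and BCL11B, zinc finger proteins known as subunits in lymphoid and neural cells. BCL11A RNA was at 0.499, 0.968 and 1.13 CPM in NPC, against 48.0, 46.1 and 47.1 CPM in ESC, and BCL11B RNA at 2.68, 2.53 and 2.94 CPM in NPC, against 22.8, 21.3 and 23.0 CPM in ESC. Like SMARCA2, both stood in NPC far below their ESC range. BCL11A fell 55.6-fold (-5.80 ± 0.25, adjusted p = 1.37e-06) and BCL11B 8.62-fold (-3.11 ± 0.14, adjusted p = 1.66e-06). On ribosomes BCL11A was at -4.13 ± 0.57 and BCL11B at -2.06 ± 0.44 on the log2 scale (adjusted p = 7.06e-05 and 0.00149), and BCL11A was at -5.00 without NPC replicate 1 and -3.42 without NPC replicate 3. The ribosome-bound NPC libraries held only 5, 3 and 0 BCL11A counts and 9, 4 and 7 BCL11B counts, so these sizes are limited by depth.

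Subunits of the neuronal forms did not move together. DPF1 RNA was at 3.26, 3.39 and 3.18 CPM in NPC, against 11.8, 12.9 and 11.3 CPM in ESC, and fell 3.85-fold (adjusted p = 2.08e-05). On ribosomes DPF1 was at -0.56 ± 0.29 (adjusted p = 0.115), and at -0.33 without NPC replicate 3. ACTL6B and DPF3 had at most 9 and 15 counts in any RNA library and were not tested. SS18L1 rose by 0.50 ± 0.11 in RNA (adjusted p = 0.00672) and 1.46 ± 0.29 on ribosomes (adjusted p = 0.00103).

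The rises also took in BCL7A, a small accessory subunit, which went up 2.04-fold in RNA and 3.50-fold on ribosomes (adjusted p = 1.41e-04 and 1.30e-05). Its relative BCL7C rose 2.14-fold in RNA (adjusted p = 0.00637) and was at 0.53 ± 0.34 on ribosomes (adjusted p = 0.196). BRD9, at 0.37 ± 0.13 in RNA (adjusted p = 0.0413), and BICRA, which mark the non-canonical form, rose on ribosomes by 1.62 ± 0.22 and 1.13 ± 0.26 (adjusted p = 6.15e-05 and 0.00264). BRD7, of the polybromo-containing form, was at -0.36 ± 0.11 in RNA (adjusted p = 0.0307) and rose by 1.53 ± 0.22 on ribosomes (adjusted p = 1.13e-04). DPF2 was at 0.32 ± 0.12 in RNA (adjusted p = 0.0462) and 0.36 ± 0.21 on ribosomes (adjusted p = 0.158), where it was 0.18 without ESC replicate 2. The RNA calls of BRD7, BRD9 and DPF2 were small and ended with no filter on low counts (adjusted p = 0.0665, 0.0528 and 0.0682). They also ended without any 1 of the NPC replicates, and without ESC replicate 2 for BRD7 (0.0562) or ESC replicate 1 for BRD9 and DPF2 (0.0943 and 0.118). For DPF2 the call was lost with DESeq2 as well (adjusted p = 0.0652).

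**Figure D5:**
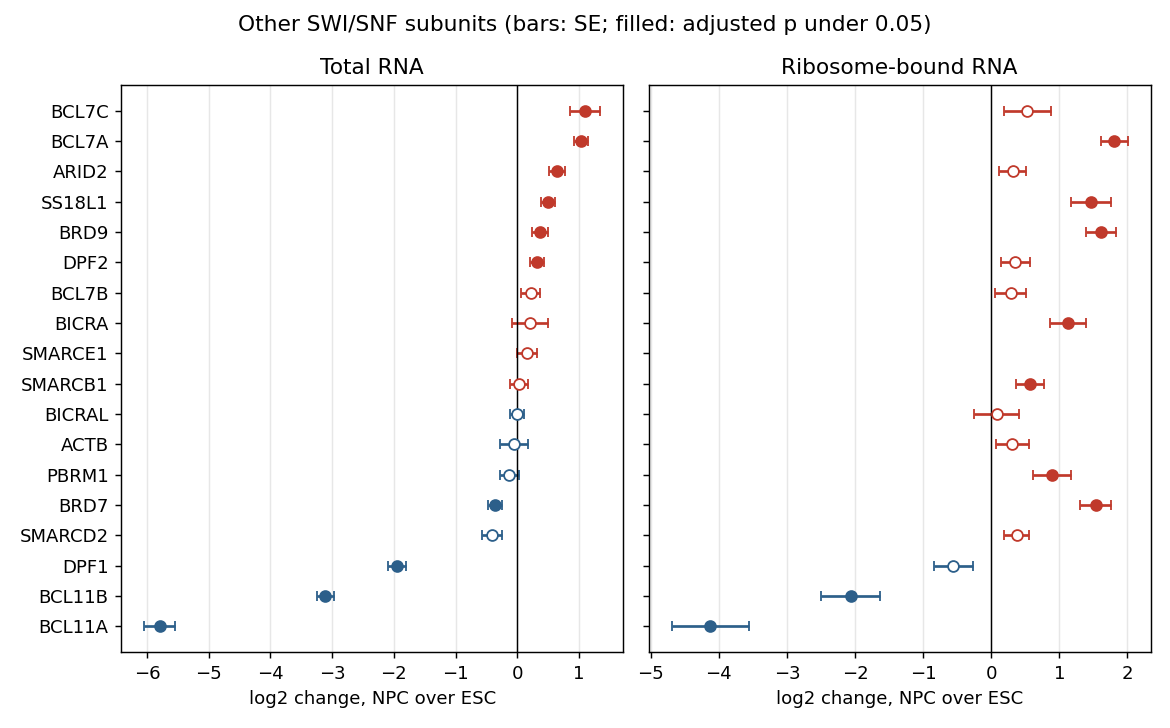
Log2 change of NPC over ESC with its standard error for the other SWI/SNF subunits tested, ordered by the change in RNA, with filled points for an adjusted p below 0.05. BCL11A, BCL11B and DPF1 lie at -5.80, -3.11 and -1.94 in RNA, and BCL7A at 1.03 in RNA and 1.81 on ribosomes.

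Genes with a profile most like that of SMARCA2 were ranked by the Pearson correlation of log2 CPM over the 12 libraries, after the mean of each assay was subtracted, among 10145 genes. The first was SLCO5A1, a transporter of the organic anion family (r = 0.993), at 3.88 CPM in NPC and 31.8 CPM in ESC in RNA. CTBP2, a transcriptional corepressor, followed at 0.990, EPB41L4B at 0.989, JAZF1 at 0.987 and RUNX1T1, another corepressor, at 0.984. The correlation does not measure the size of a change. In RNA CTBP2 was at 97.3 CPM in NPC and 215 CPM in ESC, and EPB41L4B at 13.1 and 44.0 CPM. JAZF1 was at 0.782 and 17.6 CPM there, and RUNX1T1 at 3.42 and 43.0 CPM. For SMARCC2 the closest genes were LRRC4 (0.996), TADA2B (0.996), a subunit of the SAGA coactivator, and TSC22D2 (0.995). These values describe the same 12 libraries, which share depth and state.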

How the data were processed

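Total RNA and ribosome-bound RNA were counted in 3 libraries per state and assay. The authors deposited read counts per gene symbol, which are whole numbers in every column and differ in total between libraries, so they were taken as not normalized. Tools listed in the submitters' processing notes are featureCounts 1.6.4, STAR 2.7.1a, cutadapt 1.18 and Bowtie 1.2, and the builds hg38 and GRCh38. The sources used here do not give their roles, the annotation, the use of strand, multi-mapping or how ribosomes were isolated. Genes that overlap another gene are therefore uncertain. SS18 was not analysed here. Every column matched the title of 1 sample. Nothing says that replicates are separate cultures, so p-values measure the spread between these libraries, which may be technical.

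CPM were counts scaled to a library total of 1000000. NPC over ESC was tested in each assay with edgeR 4.0.16 in R 4.3.3 (filterByExpr, TMM factors, the quasi-likelihood test, p-values adjusted by Benjamini-Hochberg over all genes tested, threshold 0.05). Efficiency was tested as the interaction in a fit of 12 libraries. The standard error is the log2 fold change divided by the square root of F. Efficiency levels and likeness used 0.5 added to CPM. DESeq2 1.42.0, other scaling and filters, left-out libraries and a replicate block were alternatives. A floor of 3 counts was 0.0854 to 0.154 CPM in RNA and 0.674 to 1.24 CPM in ribosome-bound libraries, and such limits and intervals cover counting error only. Promoter sequences and gene spans came from RefSeq. The tests were also run on simulated counts, drawn with the same spread for every gene and library. That check does not cover libraries that stand apart, such as those among the ESC replicates here. Figures were drawn with matplotlib 3.10.9. Exact tests used scipy 1.17.1.

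Replicate numbers shared by NPC and ESC were checked by correlating deviations from the group means across genes. In RNA the same-numbered libraries gave 0.185, 0.143 and 0.382. NPC replicate 1 gave a higher value, 0.217, with ESC replicate 2, and NPC replicate 2 gave 0.122 with ESC replicate 1. Replicate 3 set against other numbers gave -0.34 to -0.16, so only replicate 3 stood out. The labels state no pairing, and these values cannot settle whether the numbers pair the RNA libraries. The main tests took no pairing, and the replicate block was an alternative. On ribosomes the same-numbered libraries gave -0.18, -0.26 and -0.01 and were not taken to pair.

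The subunits, lists and tests were chosen with earlier results of these data known. Named were all 10 subunits, other SWI/SNF subunits called with a log2 change of at least 1 in either assay, and ACTL6B, DPF1, DPF2, DPF3 and SS18L1. For likeness, the 5 genes closest to SMARCA2 and 3 closest to SMARCC2 were named, with at least 10 CPM in the RNA of a state.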

Additional observations from a re-analysis of the deposited data

Results flagged for a closer look

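SMARCC1 and ARID1B drew attention because their changes in the assays pointed in opposite directions and the test of the difference passed. In the interaction fit the ribosome-bound change exceeded the RNA change by 1.67 for SMARCC1 and 1.27 for ARID1B on the log2 scale. In RNA neither gene passed the test. The SMARCC1 value in RNA was -0.11 without ESC replicate 3, and its excess on ribosomes ran from 1.39 to 1.84 with a library left out.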

How the results depend on the processing

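On ribosomes the calls of SMARCA2, SMARCA4, SMARCC1, SMARCC2, SMARCD3, ARID1B and ACTL6A held under each scaling, filter, tool, block and left-out library run. Leaving out a library gave 2 to 3 subunits higher and 2 to 4 lower in RNA, 5 to 6 and 2 to 3 on ribosomes, and 4 to 5 and 1 to 2 in efficiency. Other subunits called lower in efficiency numbered 0 to 1. With the replicate number as a block, 3 subunits were higher and 3 lower in RNA, 6 and 3 on ribosomes, and 5 and 1 in efficiency, and no call of a named gene changed. Values near 0 changed sign when a library was left out, ranging from -0.040 to 0.22 for SMARCA4, -0.076 to 0.039 for SMARCD1 and -0.10 to 0.40 for BICRA in RNA. The range was -0.18 to 0.088 for SMARCD1 on ribosomes, and -0.20 to 0.027 for SMARCD1 and -0.18 to 0.075 for DPF2 in efficiency, where DPF2 was at 0.016 with no filter. The RNA ratio of ACTL6B to ACTL6A, from few counts, was -0.20 with a pseudocount of 5 and -1.31 to 0.95 without a library. The cause was not tested. Ribosome-bound SMARCA2, with 3 to 7 counts per NPC library, is limited by depth.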

Other observations

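ATPases of the other remodeler families were counted beside the SWI/SNF subunits. On ribosomes 14 of 17 were higher in NPC and 2, HELLS and SRCAP, were lower, against 31.6% and 30.3% of all genes tested, with a median log2 fold change of 1.75. In RNA 2, CHD2 and CHD4, were higher and 6 were lower, against 26.4% and 26.2% of all genes tested, with a median of -0.05. In efficiency 12 of 17 were higher and 1 lower, against 22.9% and 19.0% of all genes tested. Their median efficiency change was 1.46, against 0.96 over the 10 SWI/SNF subunits, so a rise in efficiency was not particular to the subunits. SMARCA1 and SMARCA5, ATPases of the ISWI family, rose on ribosomes by 1.24 ± 0.35 and 0.84 ± 0.34 (edgeR, adjusted p = 0.00915 and 0.0488). CHD9, a chromodomain remodeler, was at 0.08 ± 0.15 in RNA and rose by 3.08 ± 0.22 on ribosomes (edgeR, adjusted p = 8.69e-07). ATRX, which deposits histone H3 variants at repeats, fell by 0.67 ± 0.18 in RNA (edgeR, adjusted p = 0.0139) and rose by 2.08 ± 0.27 on ribosomes (adjusted p = 4.19e-05). These genes were chosen for naming after their values were seen.

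SMARCE1, a core subunit of SWI/SNF, had 305 to 405 counts in the NPC and 195 to 222 counts in the ESC RNA libraries. In ribosome-bound libraries it had 2 to 6 counts in NPC and 1 to 7 counts in ESC, too few there to be tested. The annotation behind the counts is not given, and whether it lowers the SMARCE1 counts was not tested. They should therefore not be read as absence of the subunit.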
